A study of Homo sapiens with 6 samples.

Results

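The alpha-tubulin isotypes are the genes that encode the alpha subunit of the tubulin dimer, and 8 of them (TUBA1A, TUBA1B, TUBA1C, TUBA3C, TUBA3D, TUBA3E, TUBA4A and TUBA8) were followed here. They were taken by symbol from the deposited read count and FPKM tables, where each matched exactly 1 of 58735 genes. Their levels were compared between the castration resistant prostate cancer line C4-2B and RC4-2B, the subclone selected from it with the taxane cabazitaxel (CBZ) in 72 h treatments at 0.1 nM rising to 20 nM over 4 months. Each line was represented by 3 RNAseq libraries that the authors call biological replicates, from cells grown in serum-containing medium with no drug named for that culture. The labels name fetal bovine serum, while the methods also name CSS, so the serum of these cultures is not settled. RC4-2B is a single resistant line, so the p-values measure the spread between its cultures and not between independent selections. No other genetic change or treatment was named for either line, and the labels gave no batch or date.

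Alpha-tubulin and beta-tubulin form the dimer from which microtubules are built. Taxanes bind to the beta subunit inside the polymer and stabilise it, while the alpha subunit carries much of the chemical marking that tells one microtubule from another. The last residue of most alpha-tubulins is an encoded tyrosine that vasohibins and MATCAP remove and tubulin tyrosine ligase puts back, and polyglutamylases add side chains to the acidic tail just before it. TUBA1B and TUBA1C are the alpha-tubulins of most dividing cells, TUBA1A is best known from neurons during brain development, TUBA4A is prominent in platelets and mature neurons, TUBA3C, TUBA3D and TUBA3E are known from testis, and TUBA8 is the most divergent isotype of these.

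Coding ends of 6 isotypes are given from GENCODE release 44 (GRCh38, RNA sense, canonical transcript), as the last 45 coding bases including the stop codon, with the codon of the final residue in capitals. Each lies within a single exon.
TUBA1C: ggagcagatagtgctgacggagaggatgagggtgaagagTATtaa
TUBA3C: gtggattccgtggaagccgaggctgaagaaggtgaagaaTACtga
TUBA3D: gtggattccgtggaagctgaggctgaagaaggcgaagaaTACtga
TUBA3E: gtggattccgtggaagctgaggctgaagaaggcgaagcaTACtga
TUBA4A: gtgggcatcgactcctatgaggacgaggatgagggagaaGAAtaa
TUBA8: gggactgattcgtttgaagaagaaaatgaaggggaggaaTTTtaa
TUBA1C, on the plus strand of chromosome 12 (chr12:49273183-49273227), and the TUBA3 genes end in a tyrosine codon. TUBA4A (chr2:219250352-219250396, minus strand) ends in a glutamate codon and TUBA8 (chr22:18131092-18131136, plus strand) in a phenylalanine codon, so neither encodes the terminal tyrosine. TUBA3D (chr2:131482804-131482848, plus strand) and TUBA3E (chr2:130191831-130191875, minus strand) differed by 1 base, A38C counted from 1 at the 5′ end of the printed stretch with the TUBA3D base first, which turns the glutamate codon before the tyrosine into an alanine codon. TUBA3C (chr13:19173863-19173907, minus strand) differed from TUBA3D by C18T and T33C, here with the TUBA3C base first.

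The same likeness bears on how reads can be assigned. Over the whole coding sequence TUBA1A was identical to TUBA1B at 97.2% of aligned bases and to TUBA1C at 96.3%, TUBA3D and TUBA3E were identical at 98.8%, and TUBA4A matched TUBA1B at 86.3%. Of all 50-base windows of the TUBA1A transcript, 47.1% also occur in another isotype, and this share was 21.2% at 100 bases and 8.01% at 150 bases. TUBA1B had 56.6%, 32.1% and 19.1% at these window lengths. The canonical transcripts of TUBA4A and TUBA8 shared 0 windows at any of the 3 lengths. A read that matches these transcripts over a full window thus belongs to 1 of the 8 isotypes alone. The deposited lengths of TUBA4A and TUBA8, 4079 and 3641 bases, exceed these transcripts (2049 and 2003 bases), and windows of their other exonic sequence were not compared. The read length and the handling of reads that map to several genes are not given in the sources used here, and their part in the values below was not tested.

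**Figure D1:**
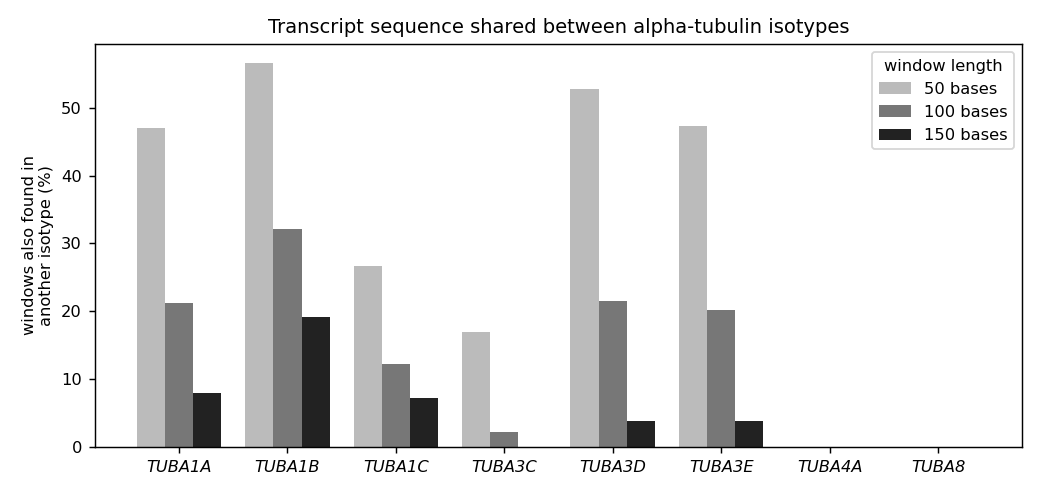
Share of windows of 50, 100 and 150 bases (y axis, percent) of each isotype's canonical transcript that also occur in any annotated transcript of another isotype (x axis). TUBA1B and TUBA3D share the most at 50 bases (56.6% and 52.8%), and the TUBA4A and TUBA8 bars are at 0.

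Positions of other genes add to this. In GENCODE release 44 TUBA1A shares 345 exonic bases with TUBA1C, whose 5′ end overlaps its own on the opposite strand, TUBA4A shares 628 exonic bases with STK16 on the opposite strand, and TUBA3D lies within MZT2A on the opposite strand with 0 exonic bases in common. Whether counting used strand is not given in the sources used here, so reads of these pairs may not be separable.

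Library totals were between 15707134 and 18052517 counts on genes. RC4-2B replicate 2 stood apart from both other RC4-2B libraries, since log2 differences from them over well-expressed genes had a standard deviation of 0.57 and 0.49, against 0.20 between replicates 1 and 3 and at most 0.18 within C4-2B. Its difference from them was related to transcript GC content (Spearman's rho = -0.75 across 6409 genes, which are not independent). Changes below are therefore also given without that library where this alters them. GC of the longest annotated transcript was 45.2% for TUBA1A, the lowest of the isotypes, and 50.2% to 58.1% for the others. Over the coding sequence alone TUBA1A was again the lowest, at 53.3%, but close to TUBA1C (53.8%) and TUBA1B (53.9%). Prostate epithelial markers were present in every library (KRT8, KRT18, FOLH1 and EPCAM each had at least 1699 counts), while KLK3, which encodes prostate-specific antigen, was 1 of 8 such markers that fell (log2 fold change -4.33, adjusted p = 0.000154, edgeR). KLK2, a related kallikrein gene on that list, averaged 238 CPM (C4-2B) and 133 CPM (RC4-2B) without overlap (log2 fold change -0.84, adjusted p = 0.131, edgeR), and was called by DESeq2, without RC4-2B replicate 2 and with the GC correction.

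Levels per length were read from the deposited FPKM, in which counts are divided by the length of the gene and the size of the library. In C4-2B the order was TUBA1B (205 ± 12.3 FPKM, SD, n = 3), TUBA1C (70.5 ± 4.75), TUBA4A (56.6 ± 6.38), TUBA3E (23.3 ± 1.74), TUBA3D (15.8 ± 1.13), TUBA1A (0.950 ± 0.316), TUBA3C (0.578 ± 0.0446) and TUBA8 (0.123 ± 0.00505). No 2 neighbours in this order overlapped between libraries. The order was the same in RC4-2B, but there TUBA1C (86.4 ± 12.4 FPKM) and TUBA4A (69.3 ± 18.4 FPKM) overlapped. TUBA1A thus stayed in the 6th place in both lines, below every isotype of the TUBA1, TUBA3 and TUBA4 genes except TUBA3C.

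Among 15054 genes tested with edgeR's quasi-likelihood method, 1.98% were called at the 0.05 threshold of the adjusted p, 1.08% as higher in RC4-2B and 0.903% as lower. Of the 8 isotypes, 7 had enough counts to be tested and 1, TUBA1A, passed this threshold, in the direction of RC4-2B. The 7 log2 fold changes were all above 0, between 0.08 (TUBA3E) and 2.06 (TUBA1A), with a median of 0.27 beside 0.0063 for all genes tested, of which 50.7% were above 0 and 21.4% had an unadjusted p under 0.05. The libraries of both lines did not overlap for 3 tested isotypes, TUBA1A, TUBA1C and TUBA3C, which were higher in RC4-2B. Such a separation upward was seen for 17.0% of all genes tested.

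**Figure D2:**
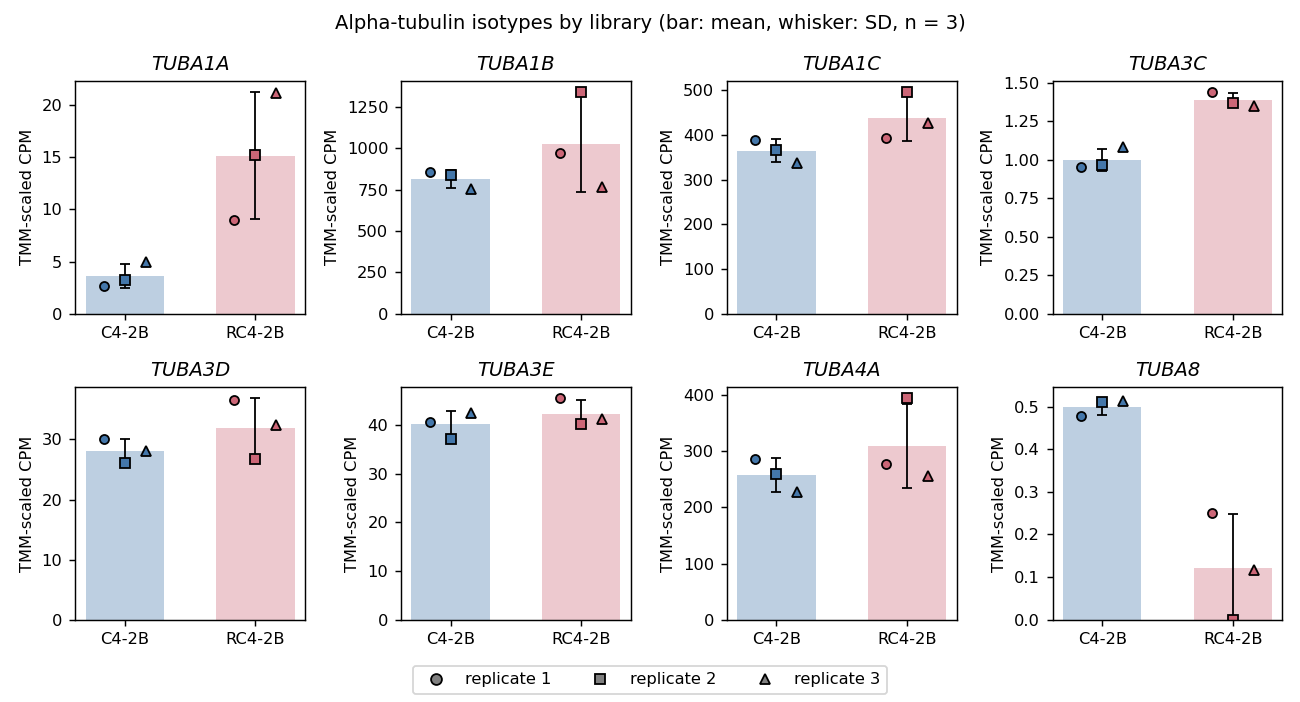
TMM-scaled CPM (y axis, linear from 0, a scale for each isotype) of the 8 isotypes in C4-2B and RC4-2B, with bars for the mean, whiskers for the SD and a point for each of 3 replicates. TUBA1A averages 15.1 CPM in RC4-2B and 3.62 CPM in C4-2B with no overlap of the points, and RC4-2B replicate 2 is the highest point for TUBA1B (1340 CPM) and TUBA4A (394 CPM).

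TUBA1A (ENSG00000167552, chromosome 12, 49184796 to 49189324, minus strand) was the isotype that rose. In C4-2B it had 45, 57 and 87 counts in replicates 1, 2 and 3, and RC4-2B had 144, 267 and 361. All RC4-2B values exceeded all C4-2B values, and replicate 3 was the highest of each line. In CPM, the counts scaled to library size after TMM normalization, the level was 3.62 ± 1.18 in C4-2B and 15.1 ± 6.10 in RC4-2B (SD, n = 3), a ratio of means of 4.18. This was a log2 fold change of 2.06 (standard error 0.35, 95% interval 1.27 to 2.86), and its adjusted p was 0.0272 (edgeR, Benjamini-Hochberg over 15054 genes). The exact permutation test of the mean CPM gave a two-sided p of 0.1, the smallest that 3 libraries against 3 allow. Without RC4-2B replicate 2 the log2 fold change was again 2.06, with an adjusted p of 0.00049, where 12.5% of genes were called and 6.50% as higher. DESeq2 gave 2.06 too (adjusted p = 4.26e-07), where 5.93% were called and 3.28% as higher, and a correction for the GC trend of each library gave 1.95 (adjusted p = 0.00547, edgeR), where 7.62% were called and 4.36% as higher. In limma on log2 FPKM the value was 1.33 with a pseudocount of 1 (adjusted p = 0.0759, and 0.181 without the filter on low values) and 1.94 with a pseudocount of 0.1 (adjusted p = 0.0778), none of which passed. Leaving out C4-2B replicate 1, 2 or 3 gave an adjusted p of 0.171, 0.140 or 0.0772 (edgeR). Leaving out RC4-2B replicate 3 gave 0.0890. These fits all lost the call and kept the direction, and without C4-2B replicate 3 the log2 fold change was 2.35. The listed pathway genes past the threshold, 3 in the main comparison, numbered 0 in each of these fits. Without RC4-2B replicate 1 TUBA1A kept its call (log2 fold change 2.33, adjusted p = 0.0166, edgeR). The listed pathway genes past the threshold numbered 1 in that fit and 5 without RC4-2B replicate 2. The cause of the lost calls was not tested. In a bulk library, more cells that express a gene and more RNA per cell cannot be told apart.

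Markers of other cells were read beside TUBA1A because neurons and fibroblasts are known to express it strongly. Of 9 neuronal and neuroendocrine markers, INSM1 and STMN2 had 0 counts in all libraries and DCX had at most 1, and the summed level of the list was 52.1 to 73.4 CPM in C4-2B, against 33.3 to 39.5 CPM in RC4-2B. Most of this neuronal sum was MAP2, a neuronal microtubule-associated protein gene, whose mean was 52.8 CPM (C4-2B) and 28.4 CPM (RC4-2B). MAP2 was the 1 marker of this list that was called as lower (log2 fold change -0.90, adjusted p = 0.0478, edgeR). ENO2, the next largest, was nearly level at 7.17 CPM (C4-2B) and 7.24 CPM (RC4-2B), with a log2 fold change of 0.015 (adjusted p = 0.964, edgeR). SYP, also tested, was not called (log2 fold change -0.46, adjusted p = 0.558, edgeR). Of 7 stromal markers, COL1A2, DCN and LUM had 0 counts everywhere. The summed stromal level was 34.1 to 36.3 CPM in C4-2B, against 44.9 to 52.8 CPM in RC4-2B. COL1A1, a collagen gene whose levels overlapped between the lines, made up most of the sum, with means of 23.3 and 28.7 CPM. COL3A1, a fibrillar collagen gene, had 7, 13 and 10 counts in C4-2B, against 23, 34 and 38 in RC4-2B, and VIM, the vimentin gene, had 161, 160 and 148 against 184, 318 and 213. Neither of these passed the threshold (adjusted p = 0.0512 and 0.139, edgeR). Of the 4 tested stromal markers, 2 were called without RC4-2B replicate 2, where 12.5% of all genes were called. The GC correction called 2 (7.62% of all genes) and DESeq2 called 1 (5.93% of all genes). The part of these markers in the TUBA1A result was not tested. Endothelial markers summed to 7.47 to 8.14 CPM and 3.64 to 5.07 CPM with PECAM1 at 0 counts, nearly all of it VWF, the von Willebrand factor gene (log2 fold change -0.84, adjusted p = 0.0645, edgeR), which was called by DESeq2 and without RC4-2B replicate 2. Leukocyte markers summed to at most 0.226 CPM in any library.

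The 2 major isotypes of the TUBA1 group did not pass the test. TUBA1B (ENSG00000123416, chromosome 12, 49127782 to 49131397, minus strand) had 14315, 14825 and 13268 counts in C4-2B, against 15574, 23503 and 13046 in RC4-2B. RC4-2B replicate 2 was far above the rest and replicate 3 was within the C4-2B range after scaling. The log2 fold change was 0.33 with a 95% interval of -0.09 to 0.76 (adjusted p = 0.317, edgeR), and it was 0.09 without RC4-2B replicate 2. TUBA1C (ENSG00000167553, chromosome 12, 49188736 to 49274603, plus strand) had 6527, 6472 and 5928 counts in C4-2B, against 6283, 8693 and 7247 in RC4-2B. Once scaled, its lowest RC4-2B library (393 CPM) was just above its highest C4-2B library (389 CPM). The log2 fold change was 0.27 with a 95% interval of -0.0040 to 0.54 (adjusted p = 0.238, edgeR), and 0.17 without RC4-2B replicate 2. The upper bounds of both intervals lie below the lower bound for TUBA1A.

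TUBA4A (ENSG00000127824, chromosome 2, 219249711 to 219278170, minus strand), whose product needs no detyrosination to lack the tyrosine, followed TUBA1B in form. It had 4802, 4589 and 3978 counts in C4-2B, against 4424, 6910 and 4361 in RC4-2B, with replicate 2 again the library that stood out. The log2 fold change was 0.26 with a 95% interval of -0.14 to 0.66 (adjusted p = 0.381, edgeR), and 0.05 without RC4-2B replicate 2. In that library the log2 level was above the mean of the other RC4-2B libraries by 0.63 for TUBA1B and 0.57 for TUBA4A, further than for 93.7% and 90.8% of tested genes. For TUBA1A this difference was 0.14.

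Of the TUBA3 genes, known from testis, TUBA3D and TUBA3E were well above the floor of detection in every library. TUBA3E (ENSG00000152086, chromosome 2, 130191743 to 130198461, minus strand) had 682, 655 and 747 counts in C4-2B, against 727, 704 and 703 in RC4-2B. The lines overlapped, with a log2 fold change of 0.08 and a 95% interval of -0.19 to 0.35 (adjusted p = 0.706, edgeR). TUBA3D (ENSG00000075886, chromosome 2, 131476093 to 131482934, plus strand) had 504, 462 and 494 counts against 585, 468 and 551, and its lowest RC4-2B library, replicate 2, lay within the C4-2B range. Its log2 fold change was 0.18 with a 95% interval of -0.16 to 0.52 (adjusted p = 0.470, edgeR), 0.29 without RC4-2B replicate 2 (adjusted p = 0.0869, edgeR) and 0.07 without replicate 1. With the GC correction it was 0.38 and passed (adjusted p = 0.0413, edgeR), and with that correction and RC4-2B replicate 2 left out, a setting chosen after seeing the data, it was 0.35 and passed (adjusted p = 0.0239, edgeR), where 13.3% of genes were called and 6.74% as higher. With the GC correction and the replicate number as a block it did not pass (0.38, adjusted p = 0.0619, edgeR). TUBA3C (ENSG00000198033, chromosome 13, 19173770 to 19181852, minus strand) had 16, 17 and 19 counts in C4-2B, against 23, 24 and 23 in RC4-2B. These did not overlap, but the log2 fold change of 0.47 had a 95% interval of -0.16 to 1.10 (adjusted p = 0.334, edgeR), and a count of 3, the floor of detection taken here, is 0.170 to 0.188 CPM beside 1.00 ± 0.0711 CPM for the gene in C4-2B.

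TUBA8 (ENSG00000183785, chromosome 22, 18110331 to 18146554, plus strand) was close to the floor and was not tested in the main comparison. It had 8, 9 and 9 counts in C4-2B, against 4, 0 and 2 in RC4-2B, so the lines did not overlap and RC4-2B was the lower. The summed counts of 26 and 6 gave a ratio of RC4-2B to C4-2B of 0.238, with an exact 95% interval of 0.0800 to 0.591 that covers counting error only. An antisense lncRNA, ENSG00000280007, shares 1914 exonic bases with TUBA8 in GENCODE release 44 and had 3 to 17 counts. A protein-coding gene on the same strand as TUBA8, ENSG00000288683, shares 1931 exonic bases with it there and has no deposited counts. PEX26, also on the plus strand, spans 18077920 to 18131138 in the deposited coordinates and so overlaps the TUBA8 span, with 1358 to 1828 counts. The part of these overlaps in the TUBA8 counts was not tested. The 0 in RC4-2B replicate 2 allows up to 0.171 CPM. The exact permutation test gave a two-sided p of 0.1, the smallest possible, and with no filter on low counts edgeR gave an adjusted p of 0.162 over all genes. A separation downward was seen for 17.1% of all genes tested.

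**Figure D3:**
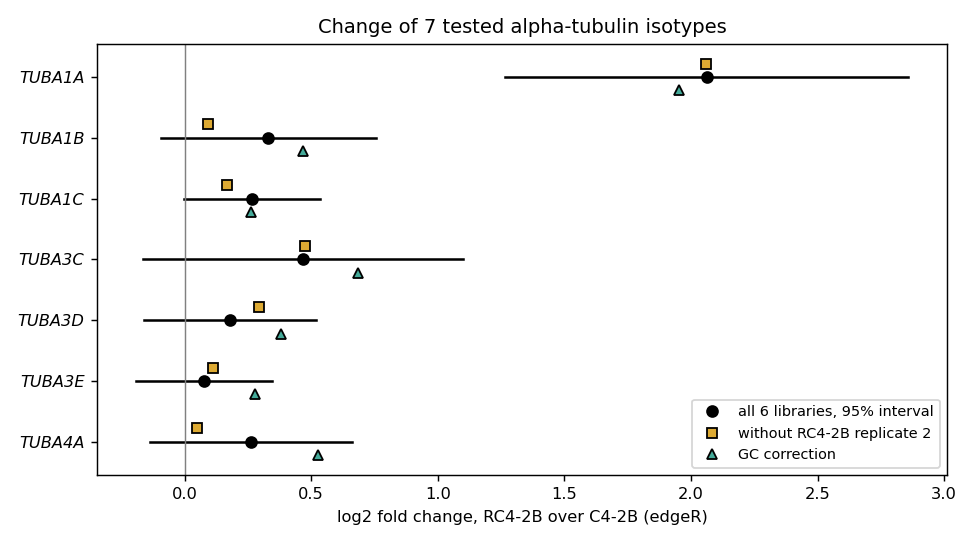
Log2 fold change of the 7 tested isotypes (x axis, RC4-2B over C4-2B), as a point with its 95% interval from edgeR on all 6 libraries, a square without RC4-2B replicate 2 and a triangle with the GC correction. The TUBA1A interval (1.27 to 2.86) lies wholly above 0 and the other 6 include 0, while the squares of TUBA1B (0.09) and TUBA4A (0.05) are close to 0.

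The make-up of the alpha-tubulin pool was described by each isotype's share of the summed alpha-tubulin FPKM in a library, a measure free of library scaling. TUBA1B made up 54.9% ± 0.877 of the pool in C4-2B and 55.7% ± 4.66 in RC4-2B (SD, n = 3), TUBA1C 18.9% ± 0.160 and 18.8% ± 2.53, and TUBA4A 15.2% ± 0.812 and 14.8% ± 0.661. Each of these overlapped between the lines (exact permutation test, two-sided p = 0.8, 1 and 0.5, unadjusted, over the 8 isotypes compared). TUBA3E held 6.28% ± 0.740 and 5.54% ± 1.20, and TUBA3D 4.24% ± 0.324 and 4.07% ± 1.22. The share of TUBA1A was 0.178%, 0.225% and 0.374% in C4-2B, against 0.547%, 0.710% and 1.46% in RC4-2B. The lines did not overlap (two-sided exact permutation test, p = 0.1, again the smallest possible), and TUBA1A remained a minor part of the pool in every library. TUBA8 was the other isotype with separate shares, at most 0.0363% in C4-2B and 0.0143% in RC4-2B.

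The shares depend on the gene lengths behind the FPKM. The deposited length is 2.64 times the coding length for TUBA1B and 3.43 times for TUBA1C, but 1.18 and 1.14 times for TUBA3D and TUBA3E, so the deposited FPKM weighs reads of the TUBA3 genes more. With counts divided by coding length, the C4-2B share of TUBA1C was 24.2% ± 0.192 and those of TUBA3E and TUBA3D were 2.67% ± 0.333 and 1.86% ± 0.154 (SD, n = 3). TUBA1A held 0.244% ± 0.0979 in C4-2B and 0.848% ± 0.457 in RC4-2B on that scale.

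**Figure D4:**
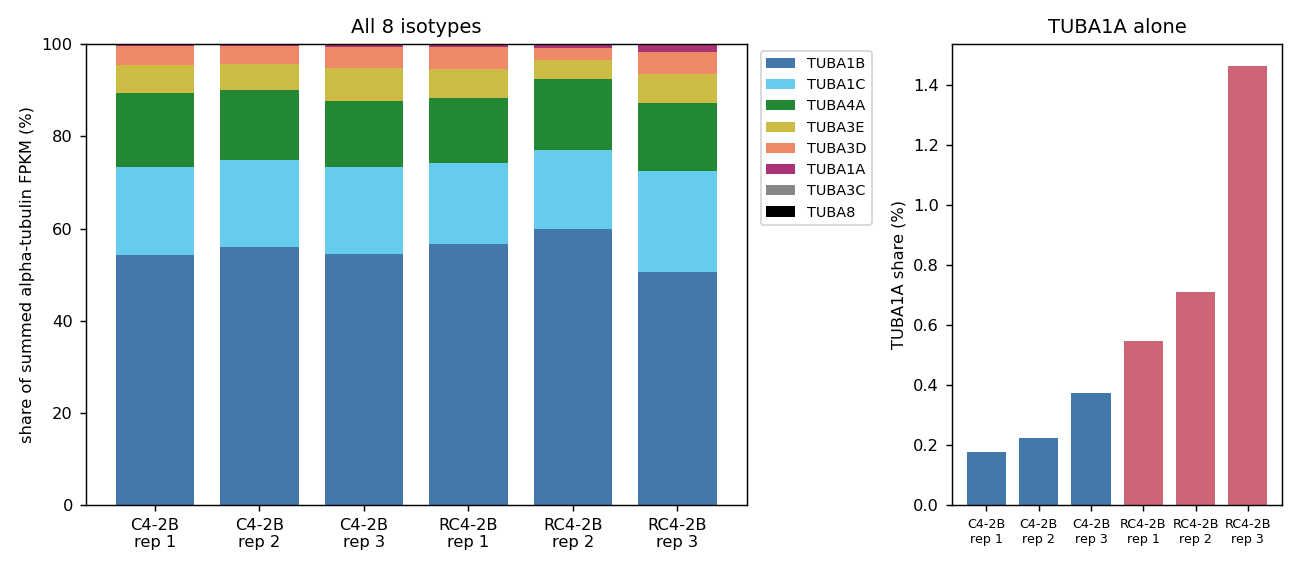
Share of the summed alpha-tubulin FPKM (y axis, percent) held by each isotype in the 6 libraries (left, stacked bars) and by TUBA1A alone on its own axis (right). TUBA1B fills between 50.7% and 59.8% of every bar, and the TUBA1A share is between 0.178% and 0.374% in C4-2B and between 0.547% and 1.46% in RC4-2B.

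TUBA1A and TUBA1B were set against each other within each library. For every 100 FPKM of TUBA1B there were 0.328, 0.402 and 0.685 FPKM of TUBA1A in C4-2B, against 0.966, 1.19 and 2.89 in RC4-2B. The log2 ratio differed by 1.73 between the lines with no overlap (two-sided exact permutation test, p = 0.1, again the smallest possible), and by 1.25 to 2.05 with a library left out, lowest without RC4-2B replicate 3. RC4-2B replicate 3 had the highest ratio of all libraries. The ratio of TUBA3D to TUBA3E was steadier, at 67.7 ± 3.76 FPKM of TUBA3D per 100 of TUBA3E in C4-2B and 72.5 ± 7.28 in RC4-2B (SD, n = 3).

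Summed over the 8 isotypes, alpha-tubulin stood at 394, 374 and 349 FPKM in C4-2B, against 430, 586 and 383 FPKM in RC4-2B. RC4-2B replicate 2 was the highest and replicate 3 was within the C4-2B range. The 9 beta-tubulin genes summed to 935, 894 and 820 FPKM in C4-2B, against 871, 837 and 862 FPKM in RC4-2B, which overlap. The ratio of summed alpha to summed beta was nearly constant in C4-2B, at 0.421, 0.419 and 0.426, and was 0.494, 0.700 and 0.444 in RC4-2B. All RC4-2B ratios were thus above those of C4-2B, also without replicate 2, and they varied far more among themselves. The log2 ratio differed by 0.34 on FPKM and by 0.37 on CPM, and by 0.15 on FPKM without RC4-2B replicate 2.

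**Figure D5:**
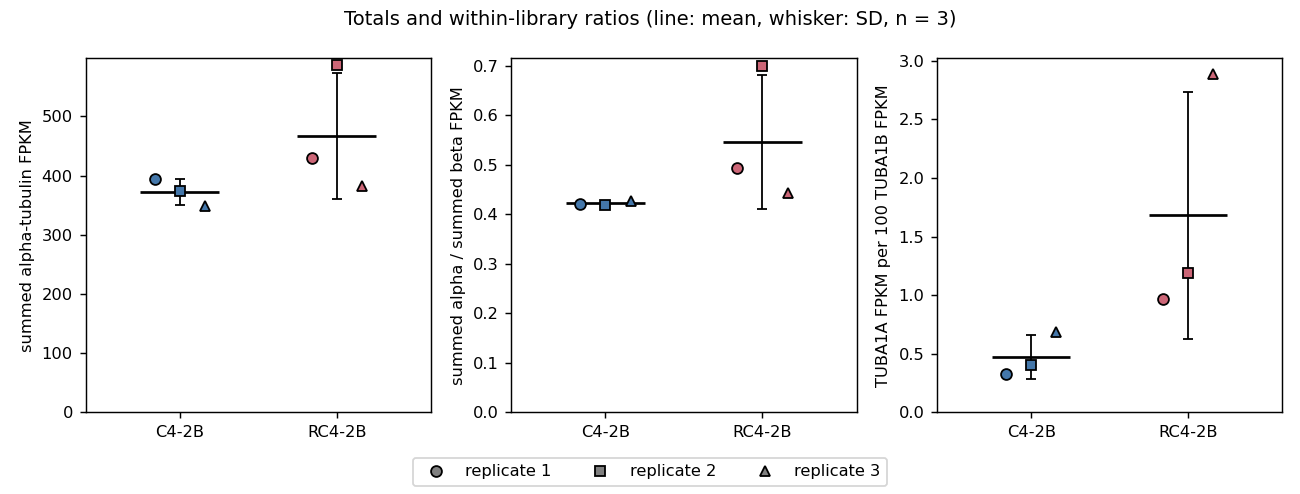
Summed alpha-tubulin FPKM (left), its ratio to summed beta-tubulin FPKM (middle) and TUBA1A FPKM per 100 FPKM of TUBA1B (right), each on a linear y axis from 0, with a point per library, a line for the mean and whiskers for the SD (n = 3). The C4-2B ratios of alpha to beta lie between 0.419 and 0.426, and the RC4-2B ratios between 0.444 and 0.700.

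Of 28 genes listed for tubulin modification, not all of them specific to the alpha subunit, 20 were tested, 1 was called higher and 0 lower. Their median log2 fold change was -0.0104. TTLL7, a tubulin polyglutamylase gene, had 207, 286 and 250 counts in C4-2B, against 349, 514 and 458 in RC4-2B, giving a log2 fold change of 0.87 (SE 0.17; adjusted p = 0.0421, edgeR). All RC4-2B libraries were above those of C4-2B, and the adjusted p ranged from 0.0022 to 0.237 when 1 library was left out at a time, passing in 2 of these 6 fits. TTLL7 did not pass with the replicate block or in any of the 3 limma fits. It passed in DESeq2 (adjusted p = 0.00119), where 5.93% of all genes were called, and with the GC correction (adjusted p = 0.0120, edgeR), where 7.62% were. The highest and lowest values of the list belonged to TTLL6, also a polyglutamylase gene (0.93, adjusted p = 0.127, edgeR), and to SIRT2, which encodes a tubulin deacetylase (-0.74, adjusted p = 0.0708, edgeR). SIRT2 passed in DESeq2, with no filter on low counts, without RC4-2B replicate 2 and in each setting with the GC correction. It did not pass with the replicate block alone or in the limma fits. TTLL6 passed with no filter on low counts and with the GC correction and RC4-2B replicate 2 left out. TTL, the tubulin tyrosine ligase gene, averaged 54.8 CPM (C4-2B) and 57.4 CPM (RC4-2B), with a log2 fold change of 0.07 and an adjusted p of 0.817 (edgeR).

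Folding and autoregulation genes, which include the chaperonin subunits, prefoldin, the tubulin cofactors and TTC5, the reader of nascent tubulin chains, filled 25 rows for 24 symbols because TBCE occurs under 2 identifiers. All 25 were tested and 0 were called by edgeR, with 2 at an unadjusted p under 0.05 (SCAPER and TBCB), beside the 21.4% of all genes, and 0 called by DESeq2. Their log2 fold changes ran from -0.66 (PFDN6) to 0.43 (SCAPER) with a median of -0.0389. Without RC4-2B replicate 2, where 12.5% of all genes were called, edgeR called 1, TBCB, the cofactor that binds alpha-tubulin. Of the 9 beta-tubulin genes 5 were tested and 2 were higher, TUBB6 (log2 fold change 0.68, adjusted p = 0.0343, edgeR) and TUBB4A (1.30, adjusted p = 0.0491, edgeR). Each passed in 1 of the 6 fits with a library left out, the one without RC4-2B replicate 2. Neither passed with the replicate block or in the 3 limma fits. Both passed in DESeq2 (TUBB6 adjusted p = 0.00111, TUBB4A 0.000317) and with the GC correction (0.00387 and 0.00147, edgeR).

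The 7 other rows whose symbols start with TUBA, pseudogenes, TUBA4B and TUBAL3, summed to between 3 and 17 counts in a library and none was tested. TUBAP2 had the most, between 3 and 13. Genes around the changed and the divergent isotypes were also read. Of 28 genes that start within 0.25 Mb of TUBA1A, 14 were tested and 0 were called by edgeR or DESeq2, with 1 at an unadjusted p under 0.05 in each (DNAJC22), against 21.4% of all genes in edgeR, and their median log2 fold change was -0.00061. Without RC4-2B replicate 2, edgeR called 2 of 16, DNAJC22 and KMT2D, which is the share of all genes called there (12.5%). Of 34 genes near TUBA4A 12 were tested, with 0 called and a median of -0.24, and of 15 near TUBA8 4 were tested, with 0 called. At an unadjusted p under 0.05 edgeR gave 1 (ZFAND2B) and 0, below the 21.4% of all genes, and DESeq2 called 0 of either.

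Over the 6 libraries, the log2 CPM of TUBA1B and TUBA4A moved most closely together among the isotypes (Pearson's r = 0.95), followed by TUBA1A with TUBA3C (0.90) and TUBA1C with TUBA4A (0.89), as a description over 6 points that share library scaling and the deviation of RC4-2B replicate 2. Among 12575 genes whose average log2 CPM was 1 or more, those most like TUBA1A were FANCB, ABI2 and TMEM168 (r = 0.995, 0.994 and 0.991, 6 libraries), with log2 fold changes of 0.48, 0.51 and 0.23 that did not pass (adjusted p = 0.158, 0.117 and 0.233, edgeR). For TUBA1B they were ANTXR1, PNRC2 and CYP1B1, for TUBA1C CIR1, AC096992.2 and PIGW, and for TUBA4A TEX261, COPS6 and CCT5, each with an r of 0.99 or more. For TUBA3C they were IGSF3, EPAS1 and MEIS3P1, of which EPAS1, encoding a hypoxia-inducible factor subunit, rose (log2 fold change 1.65, adjusted p = 0.0212, edgeR). For TUBA3D they were ENDOV, TMEM63C and AC098934.2, and for TUBA3E ERCC1, NFATC1 and LNCTAM34A.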

How the data were processed

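RNAseq libraries of C4-2B and RC4-2B were used, 3 of each, matched to table columns by the names in the labels. STAR and GRCh38 are the aligner and build named by the authors, who deposited unnormalized counts per gene and FPKM, those counts over gene length and library size. The counting program, its strand setting and the annotation release are not given in the sources used here. GENCODE release 44 (GRCh38), with slightly different gene ends, gave coding sequences, overlaps and GC content.

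The analysis of counts used edgeR 4.0.16 in R 4.3.3: TMM scaling, filterByExpr with a minimum of 10 counts (15054 genes), and glmQLFit and glmQLFTest on cell line alone. P-values were adjusted by Benjamini-Hochberg over all genes tested, with a threshold of 0.05, and 95% intervals use the moderated degrees of freedom. DESeq2 1.42.0, the study's tool, limma 3.58.1 on log2 of FPKM plus 1 or 0.1, and the other settings of the closing section were alternatives. Single ratios and shares were compared by exact permutation. The edgeR fit was tested on simulated data for the comparison of RC4-2B with C4-2B, where 191 of 200 genes changed 4-fold were recovered among 14798 genes, with 9 false calls. The simulated counts held no GC trend and no library that stood apart, so these rates do not carry over to the libraries used here.

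Within a line, all library pairs differed by more than sampling noise (chi-square 3.38 to 65.4 per gene), and each was counted as its own sample. Totals of 15707134 to 18052517 counts put 3 counts at 0.170 to 0.188 CPM, and intervals and floors from counts cover counting error only. The genes named are the 8 isotypes, the listed pathway genes past the threshold or at the ends of their list, genes around TUBA1A, TUBA4A and TUBA8, and for each tested isotype the 3 genes with the highest correlation. TTL, TUBAP2, TBCB and the marker genes named singly were picked after their values were seen. The members and lists were chosen with earlier results of these data known. Some marker genes and the coding ends of some isotypes are not reported here.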

Additional observations from a re-analysis of the deposited data

How the results depend on the processing

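TUBA1A was higher in RC4-2B in all 20 alternative settings and passed the threshold in 13, DESeq2 (adjusted p = 4.26e-07), other scalings and filters and the GC correction among them. Leaving out each library gave log2 fold changes of 1.74 to 2.35, and the isotypes past the threshold numbered 0 or 1. In limma on FPKM TUBA1A stood at 1.33 (pseudocount 1, with or without the filter) and 1.94 (pseudocount 0.1) with 0 isotypes called, although 1, 1 and 2 had an unadjusted p under 0.05. TUBA3D also passed with the GC correction, at 0.38, and with that correction and RC4-2B replicate 2 left out, a setting chosen after seeing the data, at 0.35, which made 2 isotypes, but not with that correction and the replicate block (adjusted p = 0.0619). The other isotypes kept their sign and were not called in any setting that gave a value. Listed pathway genes past the threshold, 3 in the main comparison, numbered 6 without a filter on low counts, 0 with the replicate block, 0 in each limma fit (9, and 5 or 6, at an unadjusted p under 0.05), 7 with the GC correction and replicate 2 left out, and 0 to 5 with a library left out (6 to 15 unadjusted). Differences in share changed sign for isotypes whose shares overlap. For TUBA1B the range with a library left out was -1.30 to 3.29 percentage points, for TUBA1C -1.57 to 0.75, for TUBA3D -0.53 to 0.53 and for TUBA4A -0.79 to 0.026. The cause of these moves was not tested. Deviations of libraries with the same replicate number had correlations of 0.47, 0.27 and -0.11. Unlike numbers were not compared, so whether the numbers pair the libraries is not settled. With the replicate block TUBA1A had a log2 fold change of 2.03 (adjusted p = 0.00927, edgeR). Depth limits TUBA8 and TUBA3C most, with at most 24 counts in a library.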
